A study of Mus musculus with 4 samples.

Results

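The transcripts described here are those of Trp53, the gene of the tumour suppressor p53, and of 9 genes that p53 switches on directly: Mdm2, Ccng1, Cdkn1a, Fas, Phlda3, Trp53inp1, Sesn1, Zmat3 and Ephx1. They were listed by name and found by symbol, all 10 among the 55573 mouse genes in the files. RNA sequencing had been done on B cells sorted from bone marrow of C57BL/6 mice between 8 and 12 weeks old, in a gate labelled Fr.C+C', which in the Hardy scheme contains B cell precursors at the late pro-B and early pre-B stages. There were 2 wild type libraries (WT 1 and WT 2) and 2 libraries of the genotype ADAR1 KO (KO 1 and KO 2). ADAR1, encoded by the gene Adar, edits double-stranded RNA by turning adenosine into inosine. The labels do not say how the Adar allele was made, in which cells it was lost, or whether libraries of 1 genotype are different mice, so p-values here measure the spread between libraries, which may be technical.

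p53 is held low in healthy cells by MDM2, which marks it for destruction, and it is stabilised mainly as a protein when DNA is damaged or ribosomes, replication or nutrients fail. It then binds a DNA element made of a pair of half-sites and raises genes that stop the cell cycle, repair DNA, change metabolism or lead to cell death, and it raises Mdm2, which closes a feedback loop. Because that control acts on the protein, the Trp53 transcript does not report p53 activity, and the target transcripts are the usual readout. Pro-B and pre-B cells break their own DNA at the immunoglobulin loci during V(D)J recombination, and the p53 response is one of the checkpoints of that stage.

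The values are FPKM, fragment numbers divided by exon length and by the depth of the library. They are shares of a library, so a comparison between libraries depends on what else each library holds. Each library held between 15122932 and 16415487 fragments assigned to genes, as estimated from the step size of low values. Adar was at 15.04 and 14.62 FPKM in WT 1 and WT 2 and at 15.19 and 16.79 FPKM in KO 1 and KO 2. Loss of part of the exons would not show in such a gene total, so this is no check of the genotype label. All 12 markers of the B lineage fixed for the check were detected in every library. They summed to 1560 and 1603 FPKM for wild type, then 1355 and 748 FPKM for KO 1 and KO 2. Their median log2 difference from wild type was -0.0146 in KO 1 and -0.887 in KO 2. The lower sum in KO 1 was mainly that of Cd79a, at 436.24 and 435.96 FPKM in wild type and 193.59 FPKM in KO 1. Of the 12 log2 changes, 10 were negative and 2 positive, where 61.7% of those of all genes tested were negative. The 15 neutrophil markers were also all detected, at sums of 27774 and 25947 against 36440 and 74173 FPKM. For 14 of the 15 each KO library exceeded each wild type library, where 19.7% of all genes tested did. The 12 markers of monocytes and macrophages summed to 2512 and 2414 against 3218 and 6039 FPKM. Most of that sum was Lyz2, at 2117.79 and 2152.82 against 2950.21 and 5533.43 FPKM. Of the 12 log2 changes, 5 were positive and 7 negative, so the list did not rise as a whole. The 10 erythroid markers that were matched summed to 1274 and 743 against 330 and 630 FPKM. The 5 markers of mature B cells summed to 74.2 and 78.2 against 33.72 and 12.97 FPKM, and the 6 of plasma cells to 205 and 184 against 108 and 88.6 FPKM. The fall in the plasma cell sum was about that of Jchain, at 105.85 and 91.45 against 0.25 and 0.45 FPKM. Tnfrsf17 was listed at 0 in both KO libraries. Of the 5 plasma cell markers tested, 4 log2 changes were negative and 1 positive, that of Xbp1 (45.61 and 39.29 against 47.08 and 55.40 FPKM). The 5 T cell markers summed to between 13.1 and 13.6 FPKM in wild type and between 15.2 and 20.4 FPKM in KO, the 4 NK cell markers to between 35.6 and 43.9 and between 43.4 and 101 FPKM, and the 5 of plasmacytoid dendritic cells to between 49.4 and 58.9 and between 79.3 and 95.4 FPKM. The part of these cells in the p53 results was not tested. In bulk RNA, fewer cells of a type and less RNA per cell cannot be told apart.

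The letters that p53 recognises were looked for at the start sites of these genes. The genes were listed as direct targets of p53, so a larger share with sites than among all promoters is no result of these data. Whether the sites bear on the levels in the libraries was not tested. RefSeq (GRCm38.p6) gave promoters, from 250 bases before to 50 bases after a transcription start, for 8 of the 10 genes, with no entry for Zmat3 or Trp53inp1. The p53 half-site consensus has 10 bases, a run of purines, a C, a pair of A or T letters, a G and a run of pyrimidines, and it is its own reverse complement, so both strands are covered. It was present in 5 of the 10 promoters of the 8 genes, against 8.36% of the 32851 promoters in the table. A pair of half-sites side by side, 20 bases with at most 1 letter off the consensus, was present for 2 of the 8 genes, Cdkn1a and Ccng1, against 0.067% of all promoters (22 of 32851). The 5 promoters with a half-site are shown as windows of 80 bases, 5′ to 3′ on the strand of the gene, with the half-sites and the paired site in capitals.
Cdkn1a, chr17:29090898-29090977, plus strand: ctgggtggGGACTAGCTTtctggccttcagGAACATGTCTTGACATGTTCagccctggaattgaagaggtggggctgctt
Ccng1, chr11:40755432-40755511, minus strand: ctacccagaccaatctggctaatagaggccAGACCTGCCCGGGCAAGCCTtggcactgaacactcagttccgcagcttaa
Mdm2, chr10:117710900-117710979, minus strand: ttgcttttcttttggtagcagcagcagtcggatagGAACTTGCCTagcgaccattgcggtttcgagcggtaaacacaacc
Trp53, chr11:69580249-69580328, plus strand: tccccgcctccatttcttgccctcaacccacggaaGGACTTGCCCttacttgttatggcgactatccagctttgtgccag
Sesn1, chr10:41887231-41887310, plus strand: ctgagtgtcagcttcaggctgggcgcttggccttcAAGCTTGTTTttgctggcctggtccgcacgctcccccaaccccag
The paired site begins 51 bases before the upstream start of Cdkn1a and 195 bases before that of Ccng1. The single half-site begins 186 bases before the start for Mdm2, 75 for Trp53 and 173 for the second start of Sesn1. The Phlda3, Fas and Ephx1 promoters, the other Cdkn1a promoter and the other Sesn1 promoter did not hold these letters in the window.

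In wild type cells the 10 transcripts spanned a range from below 1 FPKM to above 40 FPKM. Trp53inp1 was highest, with a mean of 42.2 ± 5.21 FPKM (SD, n = 2), followed by Trp53 at 35.2 ± 4.53, Mdm2 at 23.6 ± 0.679 and Ccng1 at 21.4 ± 1.10 FPKM. Sesn1 stood at 13.8 ± 0.361, Ephx1 at 8.70 ± 0.233 and Cdkn1a at 7.90 ± 0.714 FPKM. Fas, at 2.41 ± 0.0212, and Phlda3, at 2.01 ± 0.0283 FPKM, were near the bottom, and Zmat3 was lowest at 0.350 ± 0.0283 FPKM. The gaps between Trp53inp1 and Trp53 and between Ephx1 and Cdkn1a were smaller than the sum of their SDs, and neither order held in every KO library. In KO 1 Trp53 (40.75 FPKM) lay level with Trp53inp1 (40.59 FPKM), and in both KO libraries Cdkn1a lay above Ephx1. The most abundant transcripts were p53 itself, its pro-death target Trp53inp1 and its feedback genes, while the cell cycle inhibitor gene Cdkn1a was of middle rank.

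**Figure D1:**
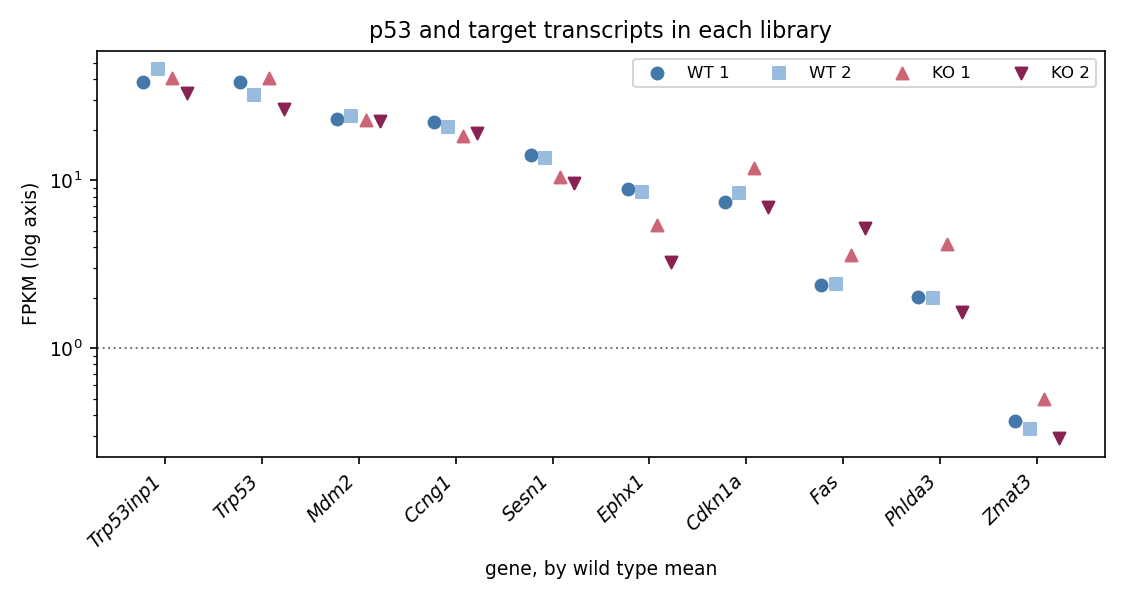
FPKM of the 10 genes in each library on a log axis, ordered by the wild type mean, with 1 point per library and a dotted line at 1 FPKM. Both KO points lie below both wild type points for Ephx1, Sesn1, Ccng1 and, by a small gap, Mdm2, and above them for Fas. The KO 1 point is highest and the KO 2 point lowest for Trp53, Cdkn1a, Phlda3 and Zmat3.

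The comparison asked which p53 pathway transcripts differ in early B cells of the ADAR1 KO genotype. Of the 10 genes, 9 reached the filter of a group mean of 1 FPKM or more in WT or KO, and 0 of the 9 passed an adjusted p of 0.05 in limma in either direction. Over all 13281 genes tested, 27 passed, all lower in KO (0.203%; higher calls 0%). At an unadjusted p under 0.05 in limma, 1 gene was higher (Fas) and 2 were lower (Sesn1 and Ephx1), where 6.45% of all genes were higher and 6.02% lower. Each KO library exceeded each wild type library for 1 of the 9 (19.7% of all genes tested) and fell short of each for 4 (31.7%). The median log2 change of the 9 was -0.08, against -0.09 over all genes tested, and 6 of the 9 changes were negative, against 61.7% of all genes.

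Trp53 (ENSMUSG00000059552, GRCm38 chromosome 11, 69580359 to 69591873) was at 38.38 and 31.97 FPKM in WT 1 and WT 2 and at 40.75 and 26.74 FPKM in KO 1 and KO 2. The groups overlapped completely, with the highest and the lowest value both in KO libraries. The log2 change, KO minus WT on log2(FPKM + 1), was -0.08 ± 0.24 (standard error), its 95% interval ran from -0.70 to 0.53, and limma gave an adjusted p of 0.871. The change turned positive without WT 1 (0.05) or without KO 2 (0.21). KO 1 held 1.52 times the level of KO 2, while WT 1 and WT 2 differed by 1.20 times. Each library held between 1636 and 2611 Trp53 fragments, so counting error was small beside these gaps. Trp53-ps, a processed copy of Trp53 on chromosome 17 (54419680 to 54420841), was listed at 1.74 and 1.52 FPKM for wild type and at 2.23 and 1.76 FPKM for KO, and fragments may have been split between the copies. Its sister genes Trp63 and Trp73 were listed at 0 in every library and at no more than 0.08 FPKM, respectively.

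The feedback genes were the pair with the smallest gap between KO 1 and KO 2. Mdm2 (ENSMUSG00000020184, chromosome 10, 117688875 to 117710758), which encodes the ubiquitin ligase that degrades p53, was at 23.12 and 24.08 FPKM in wild type and at 22.69 and 22.52 FPKM in KO 1 and KO 2. Both KO values lay just below both wild type values, and the log2 change was -0.06 ± 0.13 (95% interval -0.39 to 0.27, adjusted p = 0.830, limma). That interval allows a fall or a rise of modest size, so it does not show the level to be the same. Ccng1 (ENSMUSG00000020326, chromosome 11, 40748552 to 40755311) encodes cyclin G1, which acts with a phosphatase on MDM2. It gave 22.18 and 20.62 FPKM for wild type, then 18.35 and 19.17 FPKM for KO 1 and KO 2. The KO libraries again lay below both wild type libraries, at 0.877 times the wild type mean (log2 change -0.18 ± 0.13, 95% interval -0.52 to 0.16, adjusted p = 0.555, limma).

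Cdkn1a (ENSMUSG00000023067, chromosome 17, 29090976 to 29100727) encodes p21, the inhibitor of cyclin-dependent kinases through which p53 halts the cell cycle. It was at 7.39 and 8.40 FPKM in wild type, at 11.80 FPKM in KO 1 and at 6.94 FPKM in KO 2. KO 1 stood above and KO 2 below both wild type libraries, so the sign of the group change depended on the library. KO 1 rested on 664 fragments (95% exact Poisson interval 10.9 to 12.7 FPKM) and KO 2 on 373 (6.26 to 7.68 FPKM), intervals that do not overlap and cover counting error only. The log2 change was 0.18 ± 0.26 (95% interval -0.48 to 0.84, adjusted p = 0.731, limma). It was -0.16 without KO 1 and 0.53 without KO 2. An unnamed transcript on the other strand, AC167363.2, shares 273 exon bases with Cdkn1a and was listed at 0.30 and 0.52 FPKM in wild type and at 1.57 and 0.51 FPKM in KO 1 and KO 2. No source used here says whether strand was used in counting, so reads of the pair cannot be told apart.

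Among the genes of cell death, Fas was higher in both KO libraries and the others were not. Fas (ENSMUSG00000024778, chromosome 19, 34290666 to 34327772) encodes the death receptor CD95 and gave 2.39 and 2.42 FPKM for wild type, then 3.58 and 5.16 FPKM for KO 1 and KO 2. Neither KO library overlapped the wild type pair, and the KO mean was 1.82 times the wild type mean. The log2 change of 0.64 ± 0.20 (95% interval 0.12 to 1.16) missed the threshold over all genes, with an adjusted p of 0.370 in limma. Fas rested on 78 and 82 fragments in wild type and on 117 and 161 in KO 1 and KO 2. The Poisson intervals of WT 1 (1.89 to 2.99 FPKM) and KO 1 (2.96 to 4.29 FPKM) touch, while that of KO 2 (4.40 to 6.02 FPKM) stands clear of both wild type libraries. The order of the KO libraries is that of the neutrophil markers given above, whose part was not tested.

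Phlda3 (ENSMUSG00000041801, chromosome 1, 135766119 to 135769136) encodes a small protein that blocks the survival kinase AKT at the membrane. It was at 2.03 and 1.99 FPKM in wild type, at 4.17 FPKM in KO 1 and at 1.65 FPKM in KO 2. KO 1 was 2.07 times the wild type mean, the largest ratio of the 10 genes in that library, and its Poisson interval of 3.40 to 5.06 FPKM (103 fragments) lay above those of the other 3 libraries. KO 2, on 39 fragments, had an interval of 1.18 to 2.26 FPKM that overlaps wild type. The log2 change over both was 0.30 ± 0.34 (95% interval -0.58 to 1.18, adjusted p = 0.679, limma), -0.18 without KO 1 and 0.78 without KO 2. Trp53inp1 (ENSMUSG00000028211, chromosome 4, 11156431 to 11174379), whose nuclear protein promotes p53-dependent death and autophagy, gave 38.47 and 45.84 FPKM for wild type, then 40.59 and 33.23 FPKM for KO. KO 1 lay inside the wild type range and KO 2 below it (log2 change -0.19 ± 0.18, 95% interval -0.64 to 0.26, adjusted p = 0.623, limma).

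Ephx1 and Sesn1 were the members lower in KO at an unadjusted p under 0.05, and neither passed the adjusted threshold in limma. Ephx1 (ENSMUSG00000038776, chromosome 1, 180976210 to 181020904), which encodes the microsomal epoxide hydrolase that detoxifies reactive epoxides, gave 8.86 and 8.53 FPKM for wild type, then 5.41 and 3.26 FPKM for KO 1 and KO 2. Both KO libraries lay well below the wild type pair, with a KO mean 0.499 times the wild type mean, the lowest ratio of the 10. Its fragments numbered 273 in each wild type library, 167 in KO 1 and 96 in KO 2, and the Poisson intervals of KO 1 (4.62 to 6.29 FPKM) and KO 2 (2.64 to 3.98 FPKM) do not reach the wild type ones. The log2 change of -0.89 ± 0.23 (95% interval -1.48 to -0.30) had an adjusted p of 0.345 in limma, the smallest among the 9. Without KO 1 the change was -1.19 and passed (adjusted p = 0.0432, over a range of 0.0432 to 0.980 in 14 alternatives), in a setting where 7.1% of all genes passed and KO 2 alone stood for its group. Without KO 2 it was -0.60 and did not pass (adjusted p = 0.267). A pseudogene within the locus, Gm36961, shares 72 exon bases with Ephx1 and was listed at 1 FPKM or less in every library.

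Sesn1 (ENSMUSG00000038332, chromosome 10, 41809935 to 41908424) encodes sestrin 1, which restrains the growth kinase mTORC1 and protects from oxidants. It was at 14.06 and 13.55 FPKM in wild type and at 10.45 and 9.65 FPKM in KO 1 and KO 2. The KO libraries agreed closely and lay below both wild type libraries, at 0.728 times the wild type mean. The log2 change was -0.42 ± 0.13 (95% interval -0.77 to -0.08), and it missed the threshold over all genes, with an adjusted p of 0.370 in limma. Of the genes with an unadjusted p under 0.05, it was the one whose KO libraries differed least, by 1.08 times, against 1.66 times for Ephx1. Zmat3 (ENSMUSG00000027663, chromosome 3, 32334792 to 32366014) encodes a zinc finger protein that binds RNA and takes part in splicing. It stayed under 1 FPKM, at 0.37 and 0.33 FPKM in wild type and at 0.50 and 0.29 FPKM in KO 1 and KO 2, and was therefore not tested. Owing to its long exons it still rested on 67, 62, 91 and 50 fragments, and the Poisson intervals of KO 1 (0.404 to 0.617 FPKM) and KO 2 (0.215 to 0.381 FPKM) do not overlap.

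**Figure D2:**
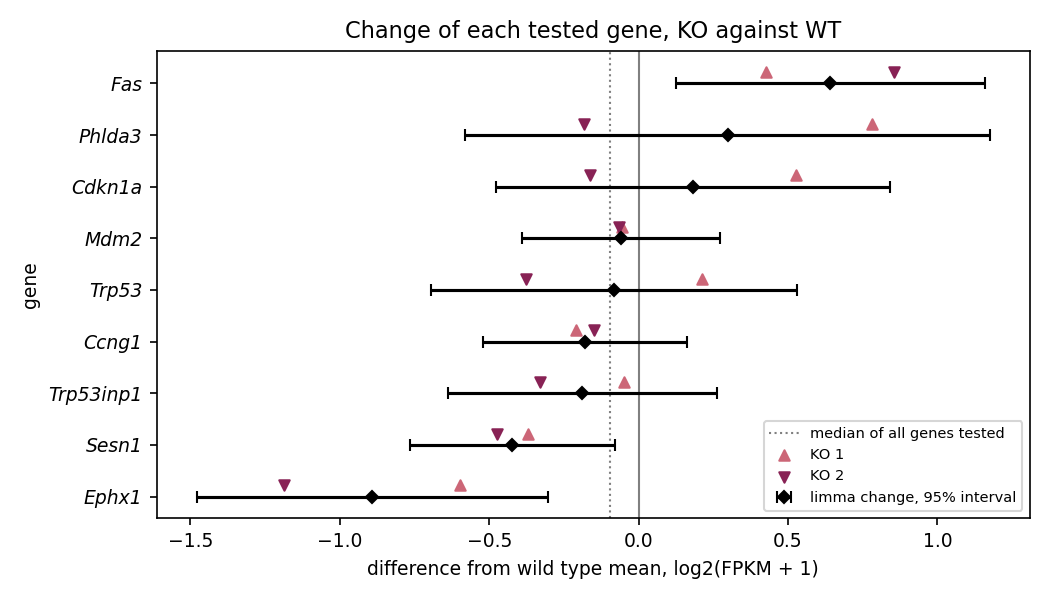
Difference of the 9 tested genes from the wild type mean on the log2(FPKM + 1) scale, with the limma change and its 95% interval as diamonds and bars and each KO library as a triangle; the dotted line is the median of all genes tested. The intervals of Fas, Sesn1 and Ephx1 leave out 0 before adjustment, and the KO libraries lie on opposite sides of 0 for Trp53, Cdkn1a and Phlda3.

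For several of these transcripts the KO libraries lay on opposite sides of wild type. KO 1 was the highest and KO 2 the lowest of the 4 libraries for Trp53, Cdkn1a, Phlda3 and Zmat3, that is, for 3 of the 9 tested genes and the untested Zmat3, an order noticed after the values were seen. Over all genes tested 13.7% had this order. KO 1 lay above KO 2 for 7 of the 9, against 63.1% of all genes. The ratio of KO 1 to KO 2 was 1.52 for Trp53, 1.70 for Cdkn1a, 2.53 for Phlda3 and 1.72 for Zmat3, whereas the larger wild type value exceeded the smaller by no more than 1.20 times in these genes. Measured by the Euclidean distance between centred log2(FPKM + 1) profiles over the 4 libraries, Cdkn1a and Phlda3 were each other's nearest neighbour among the 10 (distance 0.261), as were Mdm2 and Ccng1 (0.172). Among all protein-coding genes tested, Fpgs, Zfp282 and Tbcc were nearest to Trp53 (distances 0.0207, 0.0271 and 0.0305), and Lhpp, Tmem163 and Zfp61 to Cdkn1a (0.0349, 0.0588 and 0.0697). With 4 libraries such neighbours are a description.

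B lineage RNA was lower in KO 2, and how the p53 transcripts compared depended on whether that was scaled out. With each library rescaled so that the median change of the 12 B lineage markers was 0, the median of all genes moved from -0.09 to 0.30 on the log2 scale, and calls over all genes went from 0 higher and 27 lower to 145 higher and 154 lower, 0 of them among the 9. The factor of a library applied to all its genes, RNA of cells outside the B lineage included. The scaled values are therefore not levels per B cell. On this scale Cdkn1a gave 7.71 and 8.05 FPKM for wild type, then 11.9 and 12.8 FPKM for KO 1 and KO 2. The KO libraries thus came to lie side by side. Trp53 gave 40.0 and 30.7 FPKM for wild type, then 41.2 and 49.4 FPKM for KO, with the KO 2 value now the highest. Zmat3 gave 0.386 and 0.316 FPKM for wild type, then 0.505 and 0.536 FPKM for KO, and Phlda3 gave 2.12 and 1.91 FPKM for wild type, then 4.21 and 3.05 FPKM for KO. These genes and Fas then had each KO library above each wild type library, 4 of the 9 tested and Zmat3, where 35.3% of all genes did. Ephx1, with 9.24 and 8.18 FPKM for wild type and 5.47 and 6.03 FPKM for KO, was the one gene below both, where 4.31% of all genes were. Sesn1, with 14.66 and 12.99 FPKM for wild type and 10.56 and 17.85 FPKM for KO, no longer separated the groups. No log2 change passed on this scale either. It was 0.59 ± 0.43 for Cdkn1a (adjusted p = 0.746, limma) and -0.52 ± 0.42 for Ephx1 (adjusted p = 0.801).

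**Figure D3:**
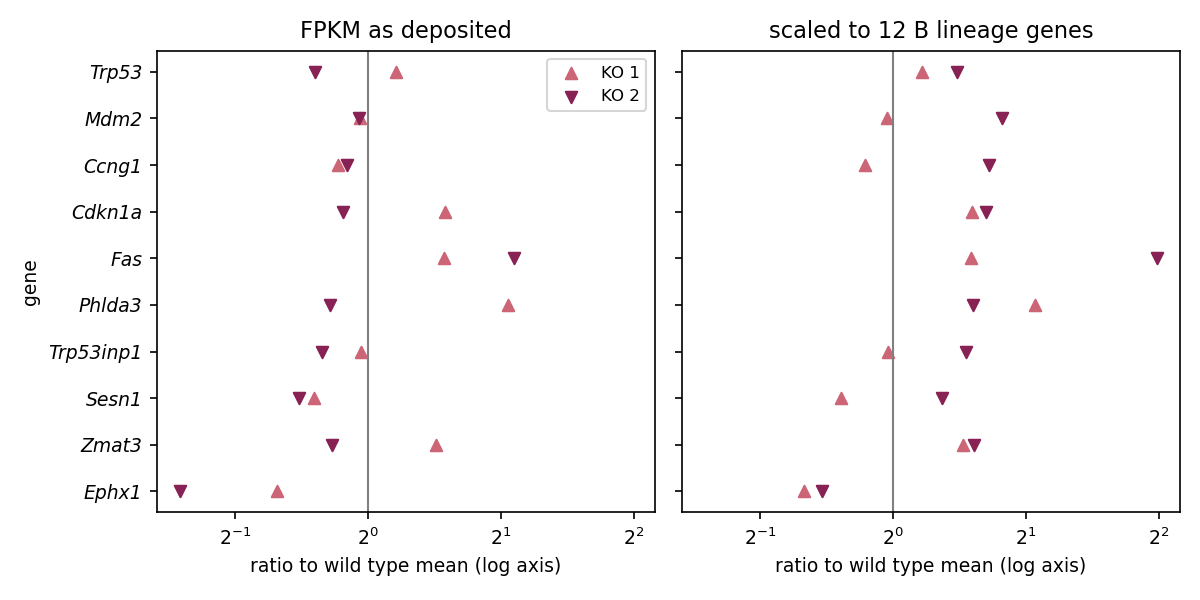
Ratio of each KO library to the wild type mean for the 10 genes on a log axis, from FPKM as deposited (left) and after scaling to 12 B lineage genes (right). Scaling moves the KO 2 points to the right; Ephx1 stays below 1 in both panels and Fas, Phlda3, Cdkn1a, Zmat3 and Trp53 are above 1 in both libraries on the right.

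Other direct targets of p53 were likewise spread on both sides of wild type. Of 44 listed, 35 were tested and 0 passed, with a median log2 change of -0.12. Both KO libraries were above both wild type libraries for 8 and below for 11, shares near the 19.7% and 31.7% of all genes, and 5 were higher and 2 lower at an unadjusted p under 0.05, where 6.45% and 6.02% of all genes were.
In the apoptosis list (8 of 11 tested, 1 above and 1 below), Bbc3, which encodes the BH3-only killer PUMA, gave 3.28 and 2.84 FPKM for wild type, then 8.05 and 5.67 FPKM for KO. It was 2.24 times the wild type mean in KO and above wild type in both libraries, with a log2 change of 0.94 ± 0.20 (adjusted p = 0.294, limma). Pmaip1, encoding the related NOXA, gave 3.68 and 6.06 FPKM for wild type, then 7.05 and 5.93 FPKM for KO, within the spread of wild type for KO 2. Triap1, which encodes an inhibitor of apoptosome formation, gave 20.82 and 18.20 FPKM for wild type, then 16.25 and 13.80 FPKM for KO (log2 change -0.36 ± 0.16).

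Among the cell cycle targets (8 of 10 tested, 3 above and 3 below both wild type libraries, as 19.7% and 31.7% of all genes were), Gadd45a, a growth arrest gene induced by DNA damage and other stress, had the smallest p of all pathway genes. It gave 25.18 and 27.11 FPKM for wild type, then 42.91 and 48.92 FPKM for KO, 1.76 times the wild type mean (log2 change 0.79 ± 0.15, adjusted p = 0.262, limma). The log2 change of Gadd45a was 0.88 without KO 1 and 0.69 without KO 2. Plk3, a stress-responsive kinase gene, gave 6.78 and 10.93 FPKM for wild type, then 13.72 and 17.77 FPKM for KO (adjusted p = 0.372). Psrc1, whose product works on spindle microtubules, lay the other way, with 11.61 and 11.57 FPKM for wild type and 8.80 and 4.99 FPKM for KO (log2 change -0.72 ± 0.26, adjusted p = 0.385, limma). Its log2 change was -1.07 without KO 1 and -0.36 without KO 2. Gadd45a and Plk3 were higher in KO 2 than in KO 1, the order of the neutrophil markers, whose part was not tested.

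Of the metabolic and autophagy targets (8 of 10 tested), 3 were above and 3 below both wild type libraries, as 19.7% and 31.7% of all genes were. Sesn2, the paralogue of Sesn1 and a target of the amino acid stress factor ATF4 as well, gave 4.63 and 4.33 FPKM for wild type, then 6.63 and 8.37 FPKM for KO, on the other side of wild type from Sesn1 (log2 change 0.63 ± 0.17, adjusted p = 0.345, limma). Dram1, a lysosomal membrane gene of autophagy, gave 8.44 and 6.74 FPKM for wild type, then 10.32 and 21.80 FPKM for KO, and its mean rested on KO 2 (adjusted p = 0.398, limma). On the log2(FPKM + 1) scale Dram1 lay 0.41 above the wild type mean in KO 1 and 1.42 above it in KO 2. Tigar, which lowers glycolytic flux, gave 2.82 and 3.16 FPKM for wild type, then 4.18 and 3.74 FPKM for KO. The neutrophil markers were also higher in KO, most so in KO 2, as Dram1 and Sesn2 were, whereas Tigar was higher in KO 1. The part of neutrophil RNA in these genes was not tested.

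DNA repair targets lay on both sides of wild type (6 of 6 tested, 1 above and 1 below both wild type libraries, as 19.7% and 31.7% of all genes were). Polh, a polymerase that copies past ultraviolet lesions, gave 14.37 and 14.61 FPKM for wild type, then 12.60 and 9.31 FPKM for KO. Xpc, which recognises bulky lesions, gave 9.73 and 8.75 FPKM for wild type, then 10.76 and 13.88 FPKM for KO. Its order of the KO libraries is that of the neutrophil markers, whose part was not tested. Rrm2b, the p53-inducible ribonucleotide reductase subunit, gave 8.05 and 8.58 FPKM for wild type, then 8.48 and 5.07 FPKM for KO. Among feedback and secreted targets (5 of 7 tested, 0 above and 3 below, beside the same shares of all genes), Gdf15, a secreted stress cytokine, gave 1.91 and 1.32 FPKM for wild type, then 0.92 and 0.93 FPKM for KO. The ribosomal protein paralogue gene Rps27l gave 97.64 and 75.47 FPKM for wild type, then 73.88 and 59.24 FPKM for KO. Pml, which organises nuclear bodies, gave 36.07 and 35.11 FPKM for wild type, then 32.88 and 27.95 FPKM for KO. The adjusted p of these 6 genes lay between 0.442 and 0.584 in limma.

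**Figure D4:**
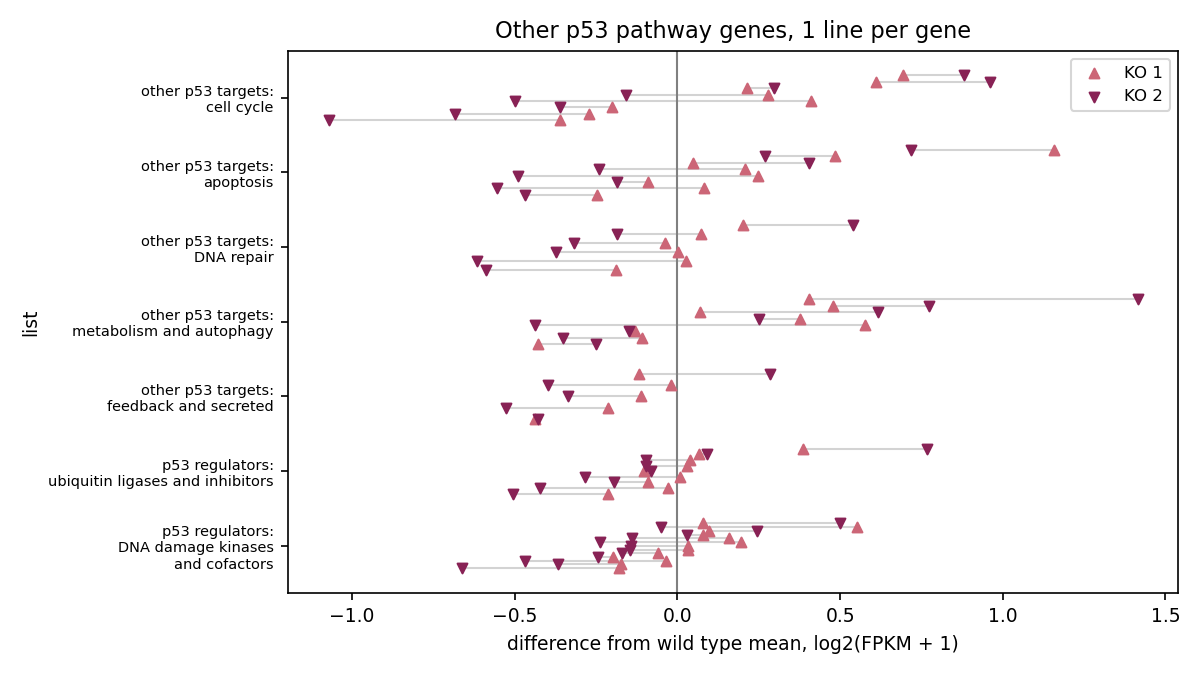
Difference from the wild type mean in KO 1 and KO 2 on the log2(FPKM + 1) scale for the tested genes of each pathway list, with a line joining the libraries of 1 gene. Genes of every target list fall on both sides of 0 in KO 2, and Bcl6 is the gene farthest to the right in the ubiquitin ligase and inhibitor list.

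Regulators of p53 also fell on both sides of wild type. Of 23 listed, 22 were tested and 0 passed, 4 were above and 5 below both wild type libraries (19.7% and 31.7% of all genes were; 0.203% of all genes passed), and their median log2 change was -0.06. Bcl6, a repressor known to silence Trp53 in germinal centre B cells, gave 5.91 and 6.63 FPKM for wild type, then 8.48 and 11.36 FPKM for KO. It was 1.58 times the wild type mean and the one regulator with an unadjusted p under 0.05 (log2 change 0.58 ± 0.18, adjusted p = 0.370, limma). Rpl5 and Rpl11 encode ribosomal proteins that bind MDM2 when ribosome assembly fails. Rpl5 gave 7.12 and 6.22 FPKM for wild type, then 5.60 and 4.39 FPKM for KO. Rpl11 gave 89.84 and 74.98 FPKM for wild type, then 80.38 and 60.93 FPKM for KO. Genes of ribosomal proteins have processed copies in the genome, so how their fragments were shared out is uncertain. Chek1 and Atr, which encode checkpoint kinases of replication stress, were below wild type in both KO libraries. Chek1 gave 12.81 and 13.80 FPKM for wild type, then 11.62 and 8.03 FPKM for KO, and Atr gave 2.73 and 3.06 FPKM for wild type, then 2.45 and 2.02 FPKM for KO. Hipk2, a kinase that phosphorylates p53, gave 7.39 and 8.38 FPKM for wild type, then 8.37 and 11.55 FPKM for KO. Bcl6 and Hipk2 were higher in KO 2 than in KO 1, the order of the neutrophil markers, whose part was not tested. Mdm4, the partner of MDM2, gave 22.47 and 23.65 FPKM for wild type, then 21.38 and 21.75 FPKM for KO, a level and a small difference like those of Mdm2. The adjusted p of Rpl5, Rpl11, Chek1, Atr and Hipk2 lay between 0.449 and 0.611 in limma.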

How the data were processed

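Per the file headers the values are FPKM per Ensembl gene as the authors made them, given to 2 decimals, 1 file per library. The build in the submitters' processing notes is mm9. Aligner and counter: not given in the sources used here. GENCODE M21 supplied symbols, 1-based GRCm38 coordinates and union exon lengths (55480 identifiers matched). FPKM times length fell on whole fragments, within 0.15, for 99.3% to 99.5% of low values, which gave the depths. The matched identifiers and these lengths are of GRCm38, not of the mm9 in the notes. The sources used here do not explain that mismatch.

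Because the unit is not counts, limma 3.58.1 (R 4.3.3, mean-variance trend, no covariate) was run on log2(FPKM + 1) on genes whose WT or KO mean reached 1 FPKM, with Benjamini-Hochberg adjustment over all 13281 genes and a threshold of 0.05. This scale understates changes of low genes. With 2 libraries against 2, an exact permutation test gives no p below 0.333, so none was run. Intervals on fragments are exact Poisson and cover counting error only.

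Members and lists were chosen with earlier results of these data known. Named are all members, the 3 genes of smallest p in each pathway list (Mdm4, the p53 paralogues and genes below the filter were added after values were seen), and 3 nearest neighbours of Trp53 and Cdkn1a. Alternatives were another pseudocount, filters, scalings, blocks, voom on estimated fragments and each library left out.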

Additional observations from a re-analysis of the deposited data

How the results depend on the processing

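The count of called members was 0 in 13 of 14 alternatives, the replicate block (0) and, chosen after seeing the data, the crossed replicate block (0) and scaling outside the neutrophil list (0) included. Leaving out each library gave between 0 and 1, the 1 being Ephx1 without KO 1. Same-numbered libraries correlated at -0.15 in their deviations from the group means. With 2 libraries against 2, this cannot decide whether the numbers pair the libraries. Over all genes, calls ranged from 0 (without KO 2, or with no filter) to 948 (without KO 1), with 68 under the replicate block, 213 under the crossed block and 9 with voom. B lineage scaling reversed the log2 change of Trp53 (0.36), Mdm2 (0.38), Ccng1 (0.25), Trp53inp1 (0.25), Triap1 (0.0701), Polh (0.0298), Rrm2b (0.10), Rps27l (0.0742), Pml (0.21), Rpl5 (0.0244), Rpl11 (0.22) and Atr (0.0603), as its upward shift of all genes implies. Mdm2 also reversed with quantile normalization (3.24e-05), median centring (0.0091) and scaling outside the neutrophil list (0.010). With each library left out in turn, the log2 change ranged from -0.38 to 0.21 for Trp53 (positive without WT 1 or KO 2), from -0.16 to 0.53 for Cdkn1a and from -0.18 to 0.78 for Phlda3 (both negative without KO 1), and from -0.62 to 0.0259 for Rrm2b (positive without KO 2). None of these reversed values passed the threshold in limma. Phlda3, Fas and Zmat3 rested on between 39 and 161 fragments a library, so counting error is widest there among the genes with intervals given, beside Ephx1 (96 to 273).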

Other observations

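Some p53 targets and regulators fell below the filter and were not tested, and those named here were chosen after their values were seen. Lif, a secreted cytokine gene, gave 0.06 and 0.10 FPKM for wild type, then 0.67 and 0.21 FPKM for KO 1 and KO 2. Perp, a desmosome and apoptosis gene, gave 0.29 and 0.31 FPKM for wild type, then 0.52 and 0.68 FPKM for KO. Trp53cor1, the long noncoding RNA gene next to Cdkn1a, gave 0.12 and 0.24 FPKM for wild type, then 0.41 and 0.46 FPKM for KO. Cdkn2a, whose locus encodes the MDM2 inhibitor ARF, gave 0.59 and 0.68 FPKM for wild type, then 0.92 and 0.17 FPKM for KO, again with KO 1 highest and KO 2 lowest. Each of these rests on few fragments.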
